A study of Homo sapiens with 4 samples.

Results

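MTF-1 (metal response element-binding transcription factor 1) is a zinc-finger protein that senses zinc and switches on metallothioneins, zinc exporters and other metal-handling genes. It binds a short motif called the metal response element, and cadmium is a toxic metal that disturbs the zinc balance it reads. CUT&RUN uses an antibody to bring a nuclease to such a protein in the nucleus, and the DNA that the nuclease cuts free is sequenced. A broad-peak caller then joins neighbouring enriched stretches of the genome into peaks, so 1 broad peak in one condition can meet several separate peaks in another.

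The regions described here are control peaks of MTF-1 that met 2 or more separate peaks of the cadmium list, with at least 1 shared base, on chromosomes 1 to 22 and X. There were 2164 of them among 69283 control peaks, or 3.12%. They were chosen by the overlap of the 2 peak lists, so the number of fragments, the covered share and the gaps are descriptions of the choice. The converse set was cadmium peaks that met 2 or more separate control peaks, with 1211 of 60121, or 2.01%. Below, "fragments" are the stretches of such a peak that peaks of the other list cover, "gaps" are the stretches between neighbouring fragments, and "uncovered ends" lie outside the outermost fragments.

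The cells were MDA-MB-231, an established human breast cancer cell line. The control group had 2 CUT&RUN libraries from cells passaged in normal medium without added cadmium. The cadmium group had 2 libraries from cells that were passaged in rising cadmium sulfate until they grew in 10 µM, which selects a resistant population rather than an acute response. Both groups were profiled with the same antibody against MTF-1. Whether the cadmium-resistant population came from 1 clone is not given in the sources used here.

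The authors merged the libraries of each condition before calling peaks, so there is 1 list per condition, holding positions with no height or read count. Replicate spread is therefore not known, and no test of the conditions was possible. Intervals in the text are 95% Wilson intervals for shares, order-statistic intervals for medians and exact Poisson intervals for densities, and they cover counting error only. Neighbouring peaks, and the parts of 1 peak, are not independent. The depth behind each list is unknown, so a difference in depth between the conditions and a difference in binding cannot be told apart. The control list covered 130.4 Mb with a median width of 1399 bp and the cadmium list covered 90.9 Mb with a median width of 999 bp. Starts of VIM, CD44, ZEB1 and EGFR, genes active in this mesenchymal-like line, lay in peaks of both lists. Those of PGR and CDH1, markers of luminal cells, lay in neither, and a start of ESR1, also a luminal marker, lay in a control peak alone.

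The 6 stretches printed here show what fragments and gaps look like at the sequence level, from regions named in the later paragraphs. They were taken from hg38 on the forward strand, and capitals mark the 1 match for which each stretch was chosen. The strings were the AP-1 site TGACTCA, bound by FOS and JUN dimers, and the metal response element core, TGCACNC or TGCGCNC, each searched on both strands. The first group lies in gaps, where the control list had a peak and the cadmium list none, inside ST14 (intron, chr11:130162718-130162804), TGM2 (intron, chr20:38130508-38130594) and AATK (exon, chr17:81122242-81122328).
ST14 gap, AP-1: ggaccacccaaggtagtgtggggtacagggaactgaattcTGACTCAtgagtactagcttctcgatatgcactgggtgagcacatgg
TGM2 gap, metal response element core: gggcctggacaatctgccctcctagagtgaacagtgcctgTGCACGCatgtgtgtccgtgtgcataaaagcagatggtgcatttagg
AATK gap, metal response element core on the reverse strand: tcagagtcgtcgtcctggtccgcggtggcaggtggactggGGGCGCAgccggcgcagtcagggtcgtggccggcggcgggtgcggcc
The second group lies in fragments, where both lists had a peak, in intergenic sequence near PARD6B (chr20:50729728-50729814) and PPDPF (chr20:63522815-63522901) and in an intron at DGAT2 (chr11:75761209-75761295).
PARD6B fragment, AP-1 on the reverse strand: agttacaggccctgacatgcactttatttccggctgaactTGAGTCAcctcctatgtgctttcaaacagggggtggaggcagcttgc
PPDPF fragment, AP-1: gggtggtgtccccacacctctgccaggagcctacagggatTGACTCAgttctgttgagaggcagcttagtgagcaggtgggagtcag
DGAT2 fragment, AP-1 on the reverse strand: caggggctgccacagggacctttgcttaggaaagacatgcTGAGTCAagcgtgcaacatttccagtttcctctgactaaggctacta
The TGM2 and DGAT2 stretches each hold a further metal response element core on the reverse strand, left in lower case. A string is a match of letters and does not show that a factor was bound there.

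Most fragmented control peaks were split once. Exactly 2 cadmium peaks lay on 1945 of them, 3 on 184, 4 on 27, 5 on 5 and 6 on 3. In the rest of the control list, 47757 peaks met exactly 1 cadmium peak and 19362 met none. The converse cadmium peaks met 2 control peaks in 1130 cases, 3 in 72, 4 in 7 and 5 in 2. The fragments came from 4561 distinct cadmium peaks, of which 32 touched 2 fragmented control peaks.

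Fragmented control peaks were wide, with a median width of 5199 bp (95% interval 5199 to 5399 bp) and a range of 1399 to 54399 bp. The share of control peaks that was fragmented rose with width. It was 0.340% (0.268 to 0.432%) of 19689 peaks of 1000 to 1999 bp, 7.14% (6.45 to 7.88%) of 5003 peaks of 3000 to 3999 bp and 60.7% (56.4 to 64.8%) of 506 peaks of at least 10000 bp. Cadmium peaks of the same widths were split by the control list at 0.542% (0.439 to 0.669%), 7.62% (6.71 to 8.63%) and 46.4% (40.6 to 52.3%). The intervals of the 2 lists overlapped in the classes from 2000 to 9999 bp. They did not overlap for peaks of 1000 to 1999 bp, where the cadmium list had the higher share, and of 10000 bp or more, where the control list had it. There were also more wide control peaks to split, with 10958 of at least 3000 bp against 6008 in the cadmium list, and the share split among these was 16.6% (15.9 to 17.3%) against 14.96% (14.1 to 15.9%). The larger number of fragmented control peaks thus came with a larger number of wide control peaks.

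**Figure D1:**
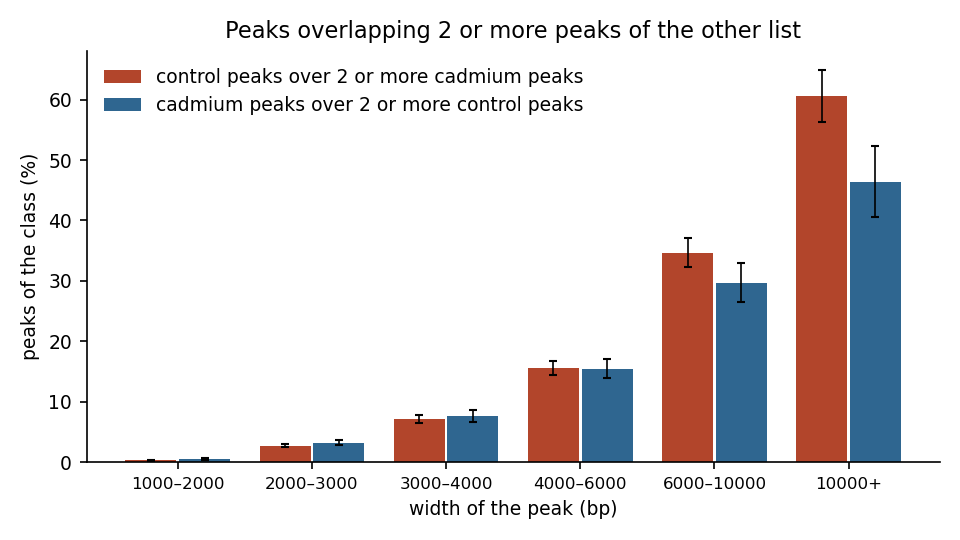
Share of peaks (y axis, %) that overlapped 2 or more peaks of the other list, by width of the peak in bp (x axis, each class from its first width to below its last), for control peaks (red) and cadmium peaks (blue), with 95% Wilson intervals. The bars rise with width in both lists, and in the widest class the control bar stands at 60.7% and the cadmium bar at 46.4%.

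The cadmium fragments covered a median of 59.5% (58.3 to 60.5%) of a fragmented control peak, with quartiles of 46.1 and 71.4%. The lowest coverage was 9.79% and the highest 97.9%, and 725 peaks (33.5%) were covered over less than 50% of their width. Of the 14.2 Mb in these peaks, 61.9% lay in fragments, 23.4% in gaps and 14.7% in uncovered ends. Converse cadmium peaks were covered more fully, with a median of 69.2% (68.0 to 70.6%) and 72.3% of bases in fragments, 21.01% in gaps and 6.70% in ends. On either side of the rule's threshold, control peaks with exactly 1 cadmium peak (1399 bp or wider, n = 26882) had a median coverage of 71.4%, those with exactly 2 had 59.2% and those with 3 or more had 61.9%.

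The edges of the peaks showed the larger contrast between the sets. Cadmium fragments covered both edges of 560 fragmented control peaks (25.9%) and neither edge of 569 (26.3%), while control fragments covered both edges of 673 converse peaks (55.6%) and neither edge of 102 (8.42%). Every fragment lay wholly inside the control peak in 1218 of the 2164. In the other 946 a cadmium peak reached past an edge, by a median of 800 bp (600 to 1000 bp). So besides splitting, cadmium peaks often ended short of the control peak's edges, and uncovered ends took a median of 10.6% of a fragmented control peak and 0% of a converse peak. Control peaks with exactly 1 cadmium peak (1399 bp or wider) had such ends too. There were 29671 uncovered ends in these 26882 peaks and 2173 in the 2164 fragmented control peaks. Ending short of the control peak's edges was therefore not particular to fragmented peaks.

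Gaps were mostly short. The caller works in bins of 200 bp and leaves at least 801 bp between neighbouring peaks in both lists, which is 4 empty bins. Of 2429 gaps in the fragmented control peaks, 833 (34.3%) had this smallest width, and the median was 1001 bp. In 690 peaks (31.9%) every gap was of the smallest width. At the other end, 389 gaps were at least 2000 bp wide, 156 were at least 3000 bp and the widest was 9801 bp. In converse peaks 48.1% of 1303 gaps had the smallest width and 29 were at least 3000 bp. A gap of 4 bins is 1 bin more than the caller would have bridged, and how many of them reflect signal close to the caller's threshold was not tested.

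**Figure D2:**
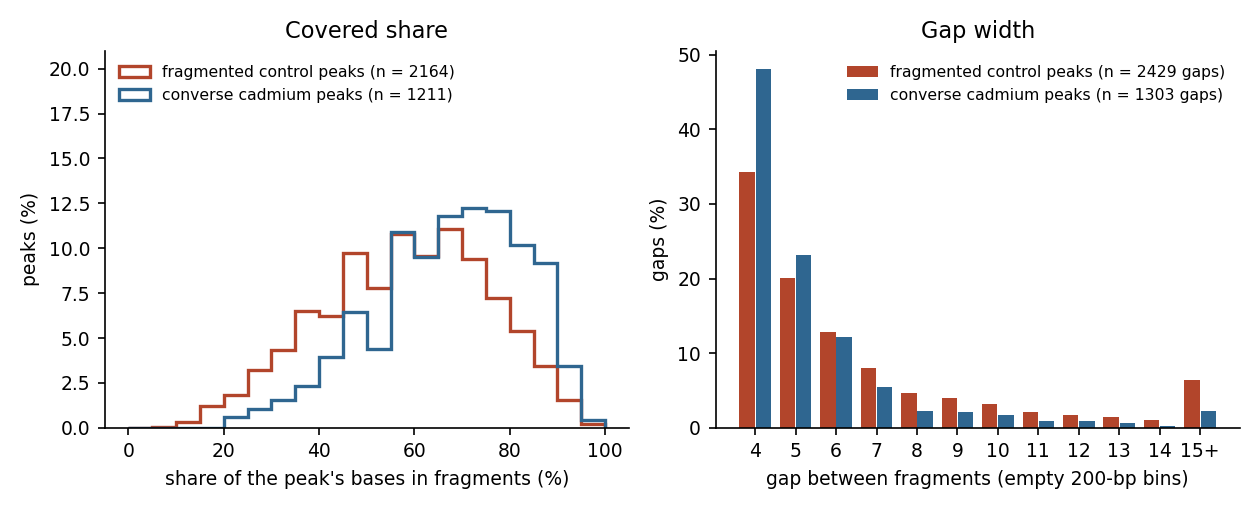
Left, distribution of the covered share (x axis, % of a peak's bases in fragments, in steps of 5) over fragmented control peaks (red, n = 2164) and converse cadmium peaks (blue, n = 1211), as a percent of peaks (y axis). Right, gap width in empty bins of 200 bp (x axis, 15 or more pooled) as a percent of gaps (y axis), with 34.3% of control and 48.1% of converse gaps at the smallest width of 4 bins.

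Fragments were unequal. In the 1945 control peaks with 2 fragments the wider had a median of 1999 bp and the narrower 799 bp, and in 736 of them (37.8%) one was at least 3 times as wide as the other, close to the 37.7% in converse peaks. A fragment of a single bin occurred in 179 fragmented control peaks (8.27%). There was some mutual splitting, since 276 fragmented control peaks (12.8%) also overlapped a cadmium peak of the converse set.

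Transcript start sites (TSSs) of GENCODE 44 lay in the fragments far more often than in the gaps. At least 1 TSS lay in a fragment in 1086 of the 2164 peaks, or 50.2% (48.1 to 52.3%), and in a gap in 287, or 13.3% (11.9 to 14.8%). A gap held a TSS while no fragment did in 64 peaks, or 2.96% (2.32 to 3.76%), and 975 peaks (45.1%) held no TSS at all. Converse cadmium peaks gave 50.2% (47.4 to 53.0%) with a TSS in a fragment, 11.97% (10.3 to 13.9%) with one in a gap and 2.56% (1.81 to 3.61%) with one in a gap but in no fragment. These shares overlapped in their intervals. The share with a TSS in a fragment rose with the width of the control peak, from 19.9% (16.1 to 24.5%) below 3000 bp through 41.4% (38.3 to 44.6%) to 72.0% (68.9 to 74.9%) at 6000 bp or more. Converse peaks rose likewise, at 18.6, 50.8 and 76.3% in the same classes. Control peaks with 1 cadmium peak (1399 bp or wider) had a TSS in the covered part in 38.5, 60.4 and 76.1%, and in 45.5% over all widths.

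Counted by position, the fragmented control peaks held 7726 distinct TSS positions. Fragments held 6882 of them, or 89.1% (88.4 to 89.8%), against 61.9% of the bases. The density was 0.785 TSS positions per kb (0.767 to 0.804) in fragments, 0.162 (0.149 to 0.177) in gaps and 0.146 (0.130 to 0.164) in uncovered ends. The fragment density was 4.83 times that of the gaps. In converse cadmium peaks it was 0.707 per kb (0.684 to 0.731) in fragments and 0.180 (0.159 to 0.203) in gaps, a ratio of 3.92. Gaps and uncovered ends of the fragmented control peaks thus had similar densities, with overlapping intervals. Control peaks with 1 cadmium peak (1399 bp or wider) had 1.39 per kb in the covered part and 0.141 in uncovered ends, a ratio of 9.82. A higher TSS density in covered than in uncovered stretches was therefore not particular to fragmented peaks.

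Fragments of the fragmented peaks held fewer TSSs than the covered part of control peaks with 1 cadmium peak, which had 1.39 per kb (1.38 to 1.40). The difference was wide below 3000 bp, at 0.503 (0.439 to 0.573) against 1.51 (1.49 to 1.52) per kb, and narrow at 6000 bp or more, at 0.815 (0.792 to 0.838) against 0.928 (0.905 to 0.951). The narrower fragmented peaks were mostly away from TSSs, and 260 of the 346 below 3000 bp (75.1%) held none. Most peaks of this class in the other sets held none either. The shares were 58.8% of 19071 control peaks with 1 cadmium peak and 77.6% of 312 converse peaks.

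The bases nearest a TSS were the most completely covered. Among fragmented control peaks, 606 held exactly 1 TSS of an Ensembl canonical protein-coding transcript, and it lay in a fragment in 573 (94.6%, 92.5 to 96.1%), in a gap in 24 (3.96%, 2.68 to 5.83%) and in an uncovered end in 9. Measured in 200-bp bins along these peaks, cadmium fragments covered 92.8% of the bins in the 500 bp upstream of the TSS and 91.4% in the 500 bp downstream. Coverage was 60.0% between 1000 and 1500 bp upstream and 59.5% between 1500 and 2000 bp downstream. Gaps took 5.04% of the bins just upstream of the TSS and 35.2% of those 1500 to 2000 bp upstream. Converse cadmium peaks showed the same shape, with 95.8 and 95.5% covered in the 500 bp on either side and 65.5% between 1500 and 2000 bp upstream.

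Where a TSS lay in a gap, it was often near a fragment. The 539 TSS positions in gaps were a median of 337 bp (309 to 363 bp) from the nearest fragment edge, and 162 of them (30.1%) lay within 200 bp, the width of 1 bin. They fell in 298 of the 2429 gaps (12.3%).

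In the control peaks with 2 fragments, a TSS in 1 fragment was more frequent than a TSS in both, and a TSS in neither was the most frequent. A TSS lay in both fragments in 192 (9.87%), in 1 fragment in 743 (38.2%) and in neither in 1010 (51.9%). Where 1 fragment carried it, that was the wider fragment in 611 of 743, or 82.2% (79.3 to 84.8%). Where both carried one, the fragments held starts of the same gene in 116 and of different genes in 76. The converse set gave 10.97, 37.9 and 51.2% for the 3 classes, and the wider fragment carried the TSS in 80.8% (76.8 to 84.3%). A wider stretch is also more likely to hold any given TSS.

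The AP-1 string lay mainly in fragments as well. Of 3579 AP-1 strings in fragmented control peaks, 2987 lay in fragments, or 83.5% (82.2 to 84.6%). The density was 0.341 per kb (0.329 to 0.353) in fragments, 0.0985 (0.0882 to 0.110) in gaps and 0.127 (0.112 to 0.143) in uncovered ends, and fragments exceeded gaps 3.46 times. The same letters in reverse order, a reference of equal composition, were at 0.136 per kb (0.128 to 0.144) in fragments and 0.124 (0.113 to 0.137) in gaps, so they were nearly even. Gaps thus held fewer AP-1 strings than reversed strings, and fragments held more. In converse peaks the AP-1 densities were 0.345 (0.329 to 0.362) and 0.0883 (0.0737 to 0.105) per kb, a ratio of 3.91. Control peaks with 1 cadmium peak also held more AP-1 strings where covered, at 0.370 per kb against 0.152 in uncovered ends, a ratio of 2.43.

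Forkhead strings, sites of FOX transcription factors, lay the other way. They were searched as GTAAACA, as ATAAACA with the first letter changed, as GTAAATA with the last C changed, and as ATAAATA with both changed, on both strands. Their density was 0.567 per kb (0.552 to 0.583) in fragments and 0.882 (0.850 to 0.915) in gaps, which is 1.56 times higher in gaps. The reversed forkhead strings were also higher in gaps, by 1.58 times, at 1.01 against 0.639 per kb. These strings are rich in A and T, and GC content was 54.2% in fragments and 49.1% in gaps. The ratio for the forkhead strings was close to that for their reversals. In control peaks with 1 cadmium peak, forkhead strings were likewise 1.54 times as dense in uncovered ends as in the covered part. Over all widths the metal response element core was at 1.20 per kb (1.17 to 1.22) in fragments and 1.19 (1.15 to 1.23) in gaps. In peaks below 3000 bp it was higher in gaps, at 1.11 (1.00 to 1.23) against 0.819 (0.737 to 0.908) in fragments, and converse peaks of that width gave 1.019 (0.907 to 1.14) against 0.746 (0.665 to 0.833).

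Windows of equal length gave the same order. In the middle 801 bp of each gap, an AP-1 string lay in 8.15% (7.13 to 9.31%), against 24.3% (22.8 to 26.0%) of 2875 fragments wide enough to hold such a window and 25.4% (24.96 to 25.8%) of all 46055 such control peaks. A TSS lay in 7.74% (6.74 to 8.87%) of the gap windows, 27.6% (26.0 to 29.2%) of the fragment windows and 23.6% (23.2 to 24.0%) of all. A forkhead string lay in 41.8, 29.9 and 38.7%, and a metal response element core in 57.5, 57.6 and 52.4%. On AP-1 and TSSs, fragment windows were thus much nearer to control peaks in general than gap windows were. Fragments were also richer in CpG, with an observed over expected ratio of 0.424 against 0.324 in gaps, and in exons, with 20.8% against 14.9% of bases. The share inside genes differed little, at 70.4 and 69.6%.

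**Figure D3:**
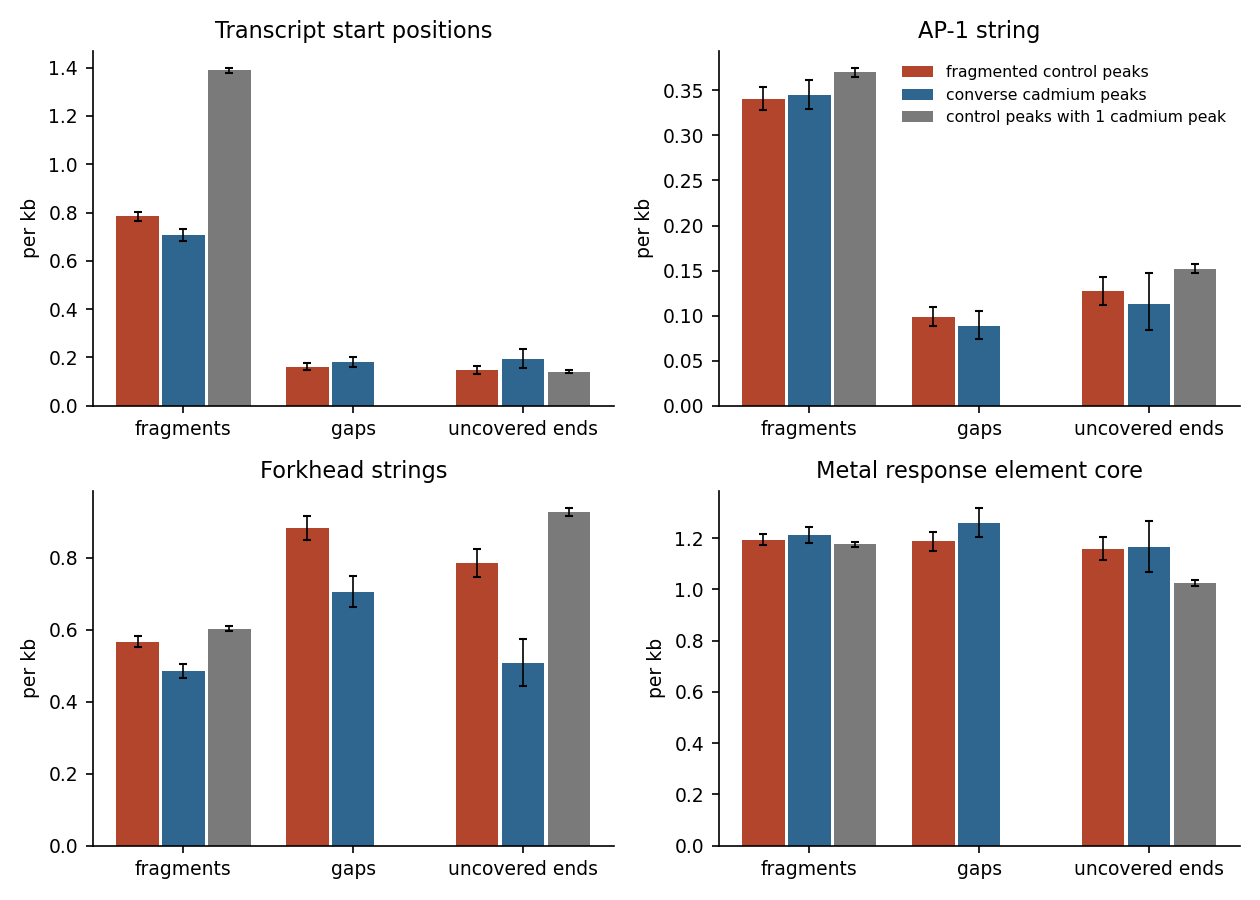
Density per kb (y axes) of TSS positions, AP-1 strings, forkhead strings and metal response element cores in fragments, gaps and uncovered ends (x axes) of fragmented control peaks (red), converse cadmium peaks (blue) and control peaks of at least 1399 bp with 1 cadmium peak (grey, which have no gaps), with exact Poisson intervals for counting error. TSSs and AP-1 strings stand higher in fragments (0.785 and 0.341 per kb in red) than in gaps (0.162 and 0.0985), forkhead strings stand higher in gaps, and the metal response element core stands at 1.20 and 1.19 in red.

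AP-1 density was lower in fragments that held a TSS. In fragmented peaks of 2 fragments with no TSS in either, the AP-1 density was 0.523 per kb (0.495 to 0.551). Where 1 fragment held a TSS, the density was 0.226 per kb (0.206 to 0.246) in that fragment and 0.442 (0.399 to 0.489) in its partner without a TSS. Where both held a TSS it was 0.204 per kb (0.180 to 0.231). TSS fragments were wider, so the share of fragments with any AP-1 string differed less, at 47.5, 41.9, 40.6 and 44.8% in the same order. GC content moved with this order, at 49.7% in fragments of the TSS-free peaks, 57.2% in the TSS fragment, 51.9% in its partner and 57.8% where both held a TSS, and its part in the difference was not tested. By width class, fragments of the fragmented peaks held more AP-1 strings than the covered part of control peaks with 1 cadmium peak below 3000 bp, at 0.756 (0.678 to 0.842) against 0.457 (0.449 to 0.465) per kb. At 6000 bp or more the values were 0.265 (0.252 to 0.279) and 0.241 (0.230 to 0.253), with overlapping intervals. Widths inside a class were not matched. Below 3000 bp the 2 sets also differed in TSS density, at 0.503 and 1.51 per kb, and the part of this in the AP-1 difference was not tested.

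Around the centres of the 2429 gaps, densities dipped in the gap itself. AP-1 density was 0.128 and 0.0988 per kb in the 2 central bins, 0.383 and 0.453 at 700 bp to either side and 0.204 and 0.210 at 2900 bp. The outer bins include sequence outside the control peak. Of the bins at 700 bp, 98.6 and 98.9% lay inside it, against 42.5 and 45.2% at 2900 bp. TSS density was 0.175 and 0.140 per kb at the centre and higher farther out, at 0.5002 and 0.597 at 1100 bp. GC content was 48.9 and 48.6% at the centre and 51.2 and 50.9% at 1100 bp. The converse gaps had AP-1 densities of 0.0883 and 0.0921 per kb at the centre and 0.545 and 0.526 at 700 bp.

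**Figure D4:**
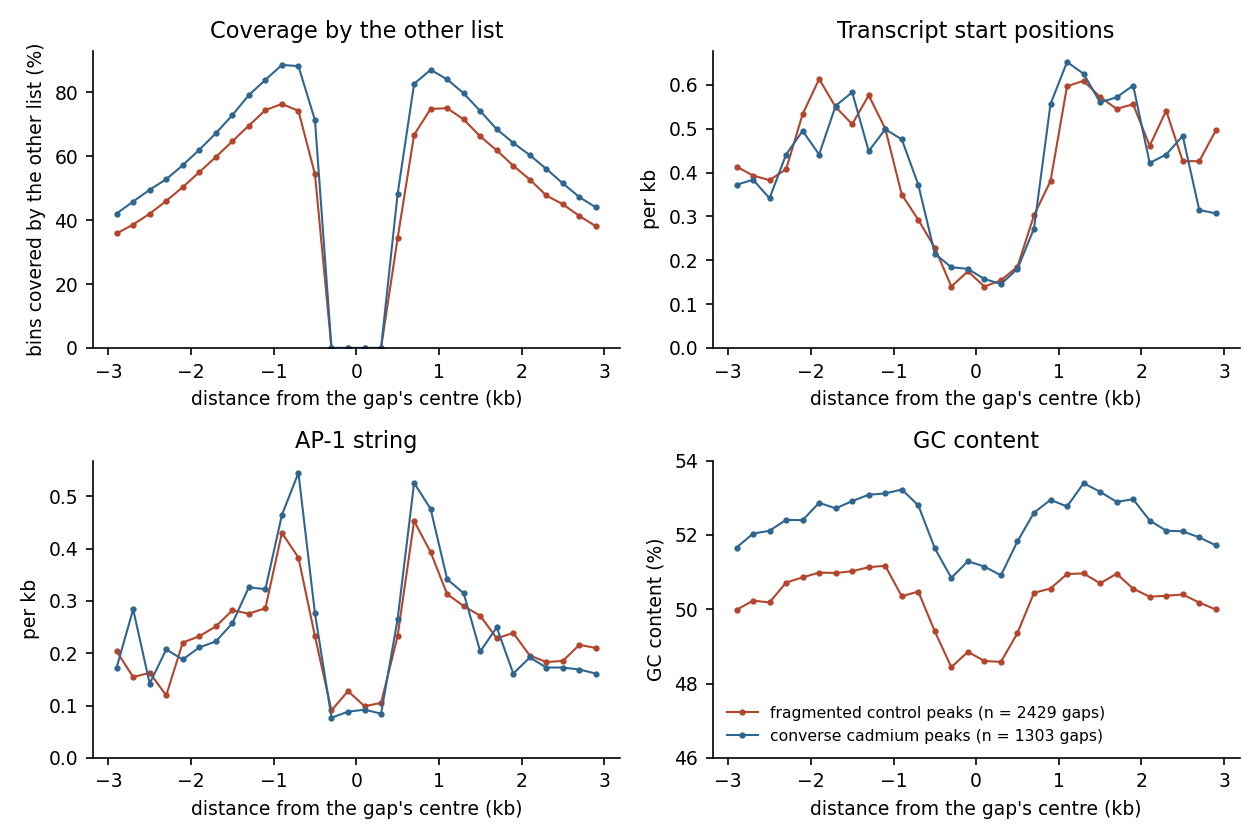
Coverage by the other list (% of bins), TSS positions and AP-1 strings (per kb) and GC content (%, axis from 46 to 54) in bins of 200 bp against the distance from the gap's centre (kb), for 2429 gaps of fragmented control peaks (red) and 1303 gaps of converse cadmium peaks (blue). TSS and AP-1 densities dip in the gap in both sets, AP-1 to 0.0988 and 0.0921 per kb in the bin just right of the centre, and GC content is higher throughout in the converse set. Bins far from the centre often lie outside the peak.

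Of the peaks with the most fragments, 3 had 6 and 5 had 5, and all 3 of the former and the 2 widest of the latter are described here. The control peak at chr11:801801-848999 met 6 cadmium peaks, which covered 86.0% of it. Starts of PIDD1, RPLP2 (a ribosomal stalk protein), PNPLA2 (adipose triglyceride lipase), CRACR2B, CD151 (a tetraspanin), POLR2L (an RNA polymerase subunit) and TSPAN4 lay in its fragments. The peak at chr20:63514601-63541599 also met 6 cadmium peaks, with 65.2% covered. PPDPF started in a fragment of 8599 bp and PTK6, a breast tumour-associated kinase, in one of 5399 bp, with a gap of 4801 bp among the fragments between them. At chr17:40439001-40455599 the 6 fragments covered 57.8%, and IGFBP4, an insulin-like growth factor-binding protein, started in the widest of them, of 3999 bp. The peaks at chr19:908601-936399 (R3HDM4, KISS1R and ARID3A) and chr14:49994401-50020599 (the non-coding LINC01588) met 5 each. They were covered over 58.3 and 39.7%.

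Of the 5 widest single gaps, those at SLC4A2 and TMEM259 held coding starts. The widest, of 9801 bp, lay in chr21:10683001-10698799, near the centromere, with no TSS in the peak. Gaps of 8001 bp in chr5:1545801-1559399 and 7801 bp in chr6:36633401-36646199 each held 1 non-coding start. A gap of 7801 bp in chr7:151054401-151096999 held 8 starts of SLC4A2, an anion exchanger that also had starts in a fragment. A gap of 7401 bp in chr19:1005001-1023199 held starts of TMEM259, which likewise had starts in a fragment.

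Coverage was lowest at chr11:75335801-75345999 inside ARRB1 (beta-arrestin 1), where 2 cadmium peaks covered 9.79% of 10199 bp. The next were chr17:2099601-2103399 in SMG6 (10.5%), chr11:75761001-75770599 at DGAT2 (12.5%), chr11:78027401-78033399 at KCTD14 (13.3%) and chr3:42829001-42833199 at ACKR2 (14.2%). Those at ARRB1, DGAT2 and KCTD14 lie on chromosome 11. Coverage was highest at chr10:41868001-41916399 (97.9%) and chr12:34345601-34399999 (96.0%), both near centromeres with no TSS, and at PLEC, the cytolinker plectin, on chromosome 8 (96.8%).

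A coding start lay in a gap and none in a fragment in 43 fragmented control peaks. The 10 with the widest such gap were at ST14, TGM2, AATK, ASIC3, NKAIN4, ASB1, PLD4, OSBPL5, RELL1 and LCN15. At ST14, which encodes the membrane serine protease matriptase, the control peak at chr11:130153201-130163999 kept fragments of 1199 and 799 bp, 18.5% of its width, and the start lay in a gap of 5801 bp. At TGM2, which encodes transglutaminase 2, 53.7% of chr20:38125401-38136199 was covered and 1 start lay in a gap of 5001 bp, 41 bp from the nearest fragment. At AATK, which encodes a tyrosine kinase, 18.2% of chr17:81111401-81124599 was covered and 1 start lay in a gap of 4401 bp. At ASIC3, an acid-sensing ion channel gene, all 9 TSS positions in chr7:151044801-151053599 lay in a gap of 4201 bp, with 52.3% of the peak covered. The other 6 gaps were 2401 to 4001 bp wide. Canonical starts lay in the gap at 3 of the 10 genes, ST14, ASIC3 and LCN15, and at the others the starts in the gap belonged to alternative transcripts. At TGM2 and ASB1 the start was within 1 bin of a fragment, at 41 and 170 bp.

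A coding start lay in a fragment and none in a gap in 759 peaks, in both in 167 and in neither in 1195. Among the 759, the widest total gaps were at PARD6B, a cell polarity gene, where 5 fragments covered 48.3% of chr20:50728601-50746799. Both starts of PARD6B lay in the widest fragment, of 4999 bp, and the gaps added up to 9004 bp. At DGAT2, the gene for an enzyme of the last step of triglyceride synthesis, 2 fragments of 599 bp each remained of a peak of 9599 bp, and 5 TSS positions of DGAT2 and its divergent transcript lay in one of them. At SMAD3, which transmits TGF-beta signals, 4 fragments covered 74.3% of chr15:67096601-67119199, with both starts in the first, of 3799 bp. At ID1, an inhibitor of differentiation factors, 74.1% of chr20:31591801-31613399 was covered, with a gap of 5601 bp to one side of the fragment that held its start. The remaining peaks were at PPDPF and PTK6, GPRIN2, DCPS, the chromosome 11 stretch with CD151, TCEA2 with RGS19 and OPRL1, and MXI1, and were covered over 34.4 to 86.0%.

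**Figure D5:**
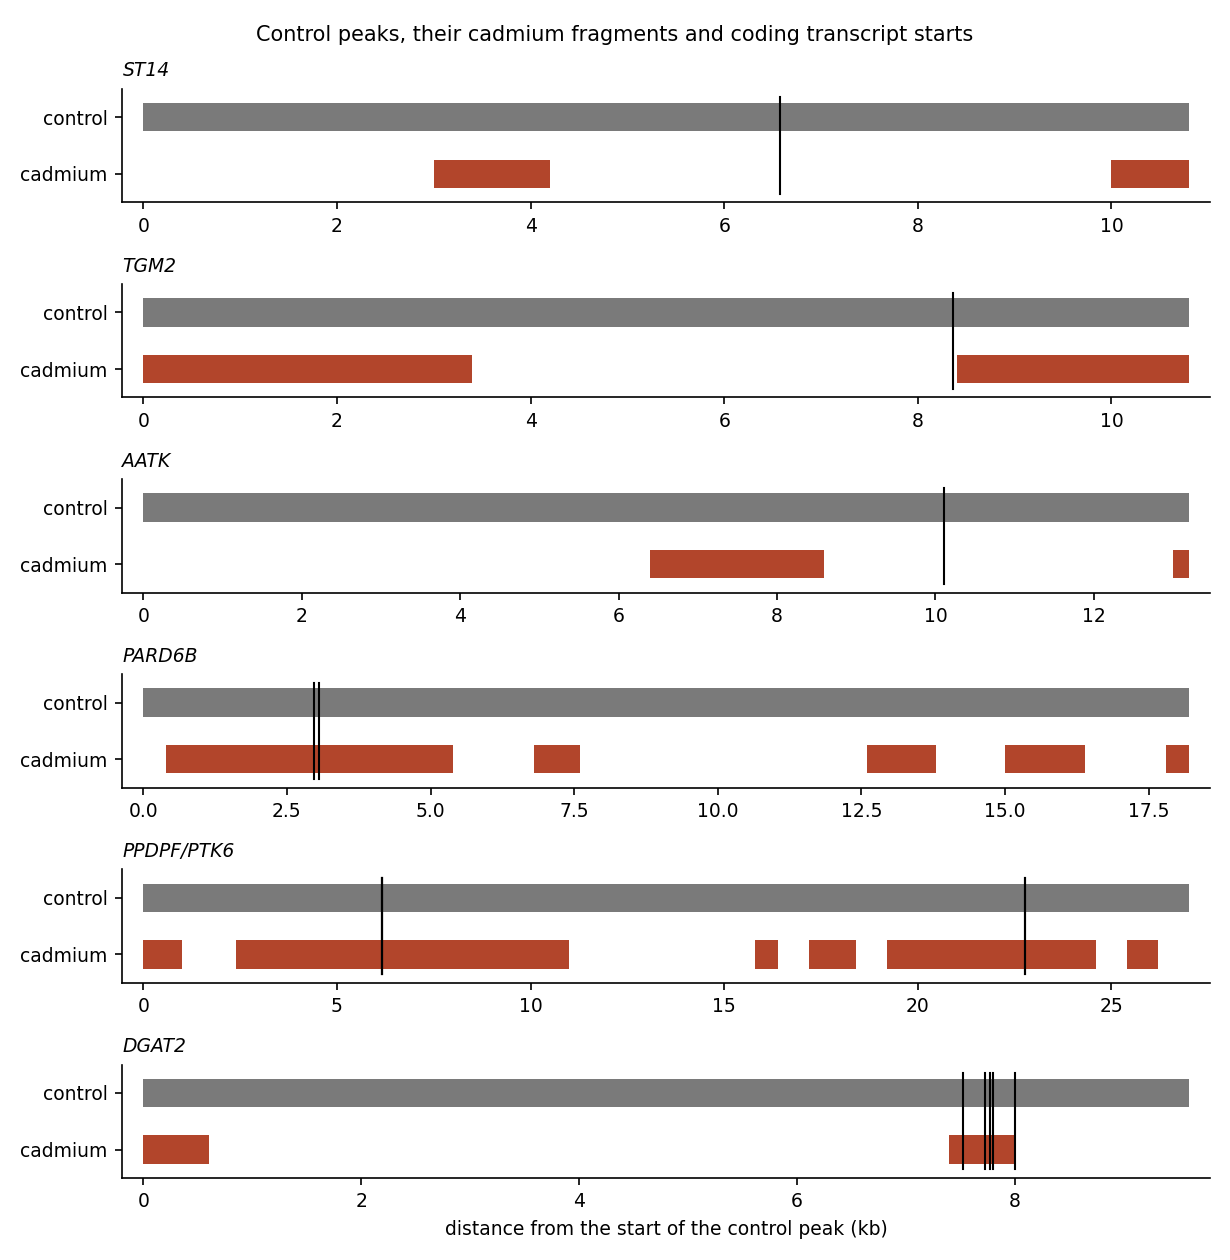
The 6 fragmented control peaks drawn to scale by distance from the control peak's start (kb): the control peak (grey), the parts covered by cadmium peaks (red) and coding transcript starts (black lines). The starts of ST14, TGM2 and AATK lie between the fragments, and those of PARD6B, PPDPF, PTK6 and all but 1 of DGAT2 lie in them.

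At the level of genes, few canonical starts lay outside the fragments. Fragmented control peaks held 970 canonical coding starts, of which 918 (94.6%, 93.0 to 95.9%) lay in fragments, 34 (3.51%, 2.52 to 4.86%) in gaps and 18 in uncovered ends. Converse peaks held 510, with 10 (1.96%, 1.07 to 3.57%) in gaps. For 15 of the 34 genes no annotated start lay in any cadmium peak, and for 3 of the 10 in converse peaks none lay in any control peak. These 15, chosen after their values were seen, included ST14, ASIC3 and LCN15 as above, and FOXH1 (a forkhead partner of SMAD proteins), GRIN2D (an NMDA receptor subunit), GGT5 (a gamma-glutamyltransferase), CTSW (cathepsin W), CPN2, TRIL, SLC35G6, PSORS1C2 and LKAAEAR1. The other 3 were coding genes without a symbol. The distance from the start to the nearest cadmium peak was 2383 bp at ST14, 1132 bp at ASIC3 and 1047 bp at SLC35G6. It was less than 1 bin for 6 of the 15, at CTSW (38 bp), TRIL (71 bp), GGT5 (83 bp), GRIN2D (133 bp), FOXH1 (152 bp) and 1 gene without a symbol.

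In all, 1271 of 19970 protein-coding genes, or 6.36%, had a start inside a fragmented control peak, 1174 in a fragment, 222 in a gap and 47 in gaps alone. Genes of metal and stress pathways were counted against this share and against 8.96% of the 14188 genes with a start in any control peak. Of 11 metallothionein genes, which buffer zinc and cadmium, MT1F alone had a start in a fragmented peak. Its peak, chr16:56653201-56658399, was covered over 46.1% with a gap of 2201 bp, and all 3 transcripts of MT1F inside it started in a fragment. None of 10 zinc exporter genes and 2 of 15 importer genes had one, namely SLC39A7 and SLC39A4, covered over 82.3 and 86.6%.

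Of 37 genes of the NRF2 and glutathione response, which counters oxidative stress, 7 had a start in a fragmented peak. The 4 with the widest peaks were GPX4 (glutathione peroxidase 4, 67.4% covered), MAFG (73.5%), FTH1 (ferritin heavy chain, 91.1%) and TALDO1 (71.4%), all with starts in fragments. Of 14 AP-1 factor genes there were 4, FOSB (88.6%), JUND (82.3%), FOSL2 (90.2%) and JUNB (88.2%), each with starts in fragments alone. Of 28 TGF-beta signalling genes there were 7, among them BMP4, SMAD3, SKI and TGFB2. BMP4 had a peak of 23199 bp covered over 28.4%, with starts in a fragment, a gap and an uncovered end. Of 44 forkhead genes there were 5, and FOXH1 was the only listed gene whose starts in such a peak lay in gaps alone (its canonical start 152 bp from a fragment), while FOXA2 (37.9% covered) had starts in both.

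The other lists had 2 of 26 heat shock genes (HSPA4 and HSPB1), 1 of 22 genes of the unfolded protein response (ATF4), 3 of 21 genes of the epithelial-mesenchymal transition (KRT8, OCLN and VIM), 2 of 31 DNA repair genes (ERCC1 and PARP1) and 1 of 31 proteasome genes (PSMB4). Of all coding genes, 684 of 19970 had a start in a converse peak. Among the lists these were 6 of 26 heat shock genes, 4 of 21 of the epithelial-mesenchymal transition and 3 of 14 AP-1 factor genes. There were also 3 of 28 genes of TGF-beta signalling, 2 of 37 of the NRF2 and glutathione response and 2 of 31 of DNA repair. The metal lists gave 1 of 11 metallothioneins, 1 of 10 zinc exporters and 1 of 15 importers. The forkhead, unfolded protein and proteasome lists had none. Counts this small, such as 1 zinc exporter against 0 in fragmented peaks, are not read as differences between the sets. Over the 12 lists, 35 of 290 genes had a start in a fragmented peak, 33 of them in a fragment, 7 in a gap and 1 in gaps alone, and 23 had one in a converse peak. The lists had 254 genes with a start in a control peak, of which 13.8% had one in a fragmented peak. Wide peaks are more often fragmented, and the width of the peaks at these genes was not matched.

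Converse peaks with many control fragments were at ABCA2 and FUT7 (chr9:137021001-137041999, 5 control peaks, 75.2% covered) and at RTEL1, ZGPAT and ARFRP1 (chr20:63678001-63710399, 4 control peaks, 87.0%).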

How the data were processed

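MTF-1 CUT&RUN peaks of 2 control and 2 cadmium libraries of MDA-MB-231 were analysed. After adaptor trimming, the authors mapped reads to hg38 (Bowtie2), pooled the 2 libraries of each condition with SAMtools 1.8 and called peaks with Epic2, a version of SICER (0.0.50 in the submitters' processing notes), with default parameters. The deposited lists give positions in base pairs and a constant last column, with no score, signal or count. Depth per library is unknown from them, and the replicates could not be compared.

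Peaks on chromosomes Y and M (16 control, 9 cadmium) were left out. Peaks were intersected in Python 3.11.15 with at least 1 shared base. TSSs were the 218307 distinct first bases of 251784 GENCODE 44 transcripts, and sequences were read from hg38 with pysam 0.24.0. Strings that cross the border of a fragment, gap or end were not counted. The genome file marked no repeats, so repeats were not assessed, and neither were blacklisted regions. Intervals were computed with scipy 1.17.1, and the steps were tested on simulated peaks. No test was run, because each condition has 1 list. Groups came from the sample titles.

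Regions, genes and gene lists were chosen with earlier results of these data known. The regions named were the 5 with the most fragments (ties to the wider peak), the 5 with the widest gap, the 5 least and 3 most covered, the 10 with the widest gap holding a coding TSS and no coding TSS in a fragment, the 10 with the widest total gap among those with a coding TSS in fragments and not in gaps, every list gene (up to 4 described per list, by peak width) and the 3 most split converse peaks, of which 1 is not reported here. Alternatives varied the overlap, the peak widths, the joining of near peaks, the TSS set and the AP-1 string. ATAC-seq, RNA-seq and signal tracks were not used here.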

Additional observations from a re-analysis of the deposited data

How the results depend on the processing

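No paired analysis was possible because each condition has 1 peak list called on its merged libraries, and for the same reason no replicate could be left out. Of 73 repeats of a result under another setting, 37 stayed within the interval of the reported value (within 1.5 times, for counts) and 36 did not. Fragmented control peaks outnumbered converse cadmium peaks under every setting tried. Keeping peaks of at least 1000 bp gave 942 and 660 of them, a median coverage of 68.4%, TSS shares of 63.2% (fragment) and 19.0% (gap), an AP-1 share in fragments of 84.9% and a GC difference of 3.87 percentage points. Fragments then held 67.8% of the bases, against 61.9% as reported, so the higher AP-1 share came with a larger share of bases. A peak of 5 bins is listed as 999 bp and falls just short, so peaks of at least 5 bins were also kept, a setting added after seeing the data. It gave 1137, 782, 66.6%, 61.8%, 18.1% and, for GC, 4.08.

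Joining peaks less than 1000 bp apart in the splitting list gave 1474 control and 647 cadmium peaks, with values of 57.1% covered, a gap of 1201 bp, 52.4% with a TSS in a fragment, 82.2% of AP-1 strings and 4.91 points of GC. Joining in both lists, also added after seeing the data, gave 2246 and 1010, with 55.5%, 1401 bp, 53.6%, 15.2% with a TSS in a gap and 81.7% of AP-1 strings. The share of bases in fragments was 60.6% with the first joining and 59.1% with the second. Requiring 50% of each fragment inside the peak gave 803 converse peaks and a GC difference of 5.35 points, and leaving out single-bin peaks gave 4.92 points. Canonical starts alone gave 40.6% (fragment) and 4.53% (gap), coding starts 42.8, 9.70 and 90.0% of positions, and starts within 200 bp of a part 52.4, 18.2 and 92.1%. The AP-1 string with 1 more base on each side lay in fragments in 93.5%. Gaps are bounded below by the caller, and depth is unknown.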

Other observations

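Fragmentation differed between chromosomes. Fragmented control peaks were 7.35% (6.37 to 8.46%) of control peaks on chromosome 20, 6.96% (6.10 to 7.93%) on chromosome 19 and 5.62% (4.90 to 6.44%) on chromosome 17, against 0.739% (0.423 to 1.29%) on chromosome 13, 1.16% (0.663 to 2.01%) on chromosome 18 and 1.40% (1.10 to 1.77%) on chromosome 2. Among control peaks of at least 3000 bp the shares were 19.6, 20.7 and 19.8% on chromosomes 20, 19 and 17 and 8.97, 12.7 and 15.4% on chromosomes 13, 18 and 2, with 78 and 55 such peaks on chromosomes 13 and 18. At these widths the highest share was 25.7% (19.3 to 33.4%) on chromosome 21, and chromosome 11, with 1077 such peaks, had 11.3% (9.57 to 13.4%).

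The direction of splitting also differed between chromosomes. Converse cadmium peaks outnumbered fragmented control peaks on chromosomes 2, 8, 13, 15, 16 and 22, most on chromosome 13 with 29 against 12 and on chromosome 16 with 73 against 42. Fragmented control peaks were at least 2.5 times as many on chromosomes 4, 5, 7, 11, 14 and 19, with 73 against 21 on chromosome 4. The control list covered 0.901 to 1.24 times as many bases as the cadmium list on the first 6 chromosomes. It covered 1.43 to 2.08 times as many on the last 6. On the 11 other chromosomes it covered 1.11 to 1.69 times as many, which overlaps both ranges. On chromosome 16 the cadmium list covered more than the control list. The number of chromosome copies and the depth in each cell population were not measured here, and their part in these counts was not tested.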
